A study of Mus musculus with 37 samples.

Results

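Chemokine ligands are small secreted or membrane-bound proteins that steer leukocytes and other cells through receptors of the CCR, CXCR, CX3CR and XCR families. The members described here are all genes with a symbol made of Ccl, Cxcl, Cx3cl or Xcl and a number, and 40 such genes are listed in the deposited tables together. Of these, 32 are among the 30892 genes of the cardiac fibroblast (CF) table, 30 among the 20158 genes of the neonatal rat ventricular myocyte (NRVM) table and 37 among the 31053 genes of the single-cell tables. They were chosen by name and not by their values.

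The study asked how ENPP1, an ectonucleotidase that hydrolyzes extracellular ATP to AMP, changes the signals that pass from cardiomyocytes to nonmyocytes after cardiac injury. CFs were wild-type C57BL/6 cells immortalized with the SV40 antigen, and all of them were given myocyte conditioned medium, which had been collected 24 h after NRVMs received vehicle, ENPP1 recombinant protein, ATP, ENPP1+ATP or AMP. There were 2 libraries for each of the 5 media at 24 h and at 48 h. NRVMs were wild-type Sprague-Dawley cells with 3 libraries for each of the same 5 labelled media at 24 h. The organism label of the NRVM samples says mouse, and they were treated here as rat, the species that the study describes. Nonmyocytes came from C57BL/6 hearts at 7 days after myocardial infarction made by tying off the left anterior descending artery, with 1 library labelled ENPP1CKO (Enpp1 deleted under the fibroblast Cre driver Col1a2CreERT with tamoxifen) and 1 control library labelled wild type. The CFs are an immortalized line, so that they are not primary cells, and the sources used here do not give the number of hearts pooled in a single-cell library. The study's methods call its replicates biological in general, without saying how the cultures behind the sequenced libraries were separated, so that p-values of the cultures are read as measures of the spread between these libraries.

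Ligands are commonly grouped by their receptors. CCL2, CCL7 and CCL12 attract monocytes through CCR2, and CCL8 is placed in the same group here. CCL3, CCL5, CCL6 and CCL9 act on CCR1, and CXCL1, CXCL2, CXCL3 and CXCL5 attract neutrophils through CXCR2. CXCL9, CXCL10 and CXCL11 are interferon-induced ligands of CXCR3 on T cells and NK cells, and CXCL12 retains CXCR4-bearing cells in marrow and tissue. CX3CL1 and CXCL16 are made as membrane-bound proteins that can be shed. In the infarcted heart, fibroblasts, endothelial cells and macrophages are all known sources of these proteins.

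Read totals were 32184799 to 115824659 per CF library and 13481389 to 16977980 per NRVM library, and the deepest CF library was vehicle replicate 1 at 24 h. Ligands together took 0.158% to 0.331% of the reads of a CF library and 0.00876% to 0.0194% of those of an NRVM library. The low-count filter left 17879 genes for testing in CFs and 13461 in NRVMs, with 21 and 11 ligands among them. The 11 untested ligands of the CFs had at most 22 reads in a library and the 19 of the NRVMs at most 12. All 10 fibroblast markers had reads in CFs, where Col1a1 was at 1942 to 4140.1 CPM, the read count scaled by library size, and all 8 cardiomyocyte markers had reads in NRVMs, where Tnnt2 was at 4132 to 5583 CPM. The NRVM libraries also held fibroblast RNA, with Col1a1 at 5302 to 16789.9 CPM. Over all single cells, Enpp1 was at 21.0 CPM for ENPP1CKO against 68.8 CPM for control.

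Many ligand genes lie in 2 clusters of the mouse genome (GRCm38, GENCODE annotation). Ccl2 (chr11:82035571-82037453), Ccl7 (chr11:82045712-82047525), Ccl12 (chr11:82101845-82103400) and Ccl8 (chr11:82115185-82116799) are neighbours on the + strand, and Ccl5 (chr11:83525778-83530518), Ccl9 (chr11:83572919-83578636), Ccl6 (chr11:83587882-83593087), Ccl3 (chr11:83647844-83649355) and Ccl4 (chr11:83662584-83664683) lie further along the same chromosome. Cxcl5 (chr5:90759360-90761624), Cxcl1 (chr5:90891241-90893115), Cxcl9 (chr5:92321347-92328079) and Cxcl10 (chr5:92346638-92348889) are on chromosome 5. Cxcl12 stands alone (chr6:117168535-117181367, + strand). Exons of Cxcl10, Cxcl16, Ccl25 and Ccl27a overlap exons of Art3, Zmynd15, Elavl1 and Il11ra1 on the opposite strand, and since the strand setting of the counting is not given in the sources used here, reads of these pairs cannot be told apart.

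The 250 bases before the start of 5 ligands are shown because these ligands moved differently in CFs, as described further on. They were read from the RefSeq promoter table of GRCm38.p6, which held 27 of the 38 ligands of the mouse annotation. Each is written 5′ to 3′ on the strand of its gene, and capitals mark matches, on either strand, to the NF-kB consensus, to the core of an interferon-stimulated response element (ISRE, a pair of GAAA runs with any 2 bases between them) or to TGANTCA (AP-1). The Cxcl12 stretch (chr6:117168285-117168534, + strand) held none of these letters. The Cxcl10 stretch (chr5:92348890-92349139, - strand) held 3 NF-kB matches, of which a pair overlap each other, 1 ISRE core and 1 TGANTCA. The Cxcl1 stretch (chr5:90890995-90891244, + strand) held 2 overlapping NF-kB matches, the Ccl9 stretch (chr11:83578637-83578886, - strand) 1 TGANTCA and 1 NF-kB match, and the Ccl20 stretch (chr1:83116516-83116765, + strand) 1 NF-kB match.
Cxcl12: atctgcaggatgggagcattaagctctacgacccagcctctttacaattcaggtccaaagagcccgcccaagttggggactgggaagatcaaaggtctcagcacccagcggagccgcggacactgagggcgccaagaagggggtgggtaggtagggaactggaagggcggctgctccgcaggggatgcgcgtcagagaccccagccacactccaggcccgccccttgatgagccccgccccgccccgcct
Cxcl10: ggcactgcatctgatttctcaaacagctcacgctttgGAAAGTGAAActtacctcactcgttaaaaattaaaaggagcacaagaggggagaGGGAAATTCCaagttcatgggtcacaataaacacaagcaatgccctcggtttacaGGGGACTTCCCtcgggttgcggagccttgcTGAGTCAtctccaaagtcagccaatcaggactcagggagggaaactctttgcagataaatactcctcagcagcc
Cxcl1: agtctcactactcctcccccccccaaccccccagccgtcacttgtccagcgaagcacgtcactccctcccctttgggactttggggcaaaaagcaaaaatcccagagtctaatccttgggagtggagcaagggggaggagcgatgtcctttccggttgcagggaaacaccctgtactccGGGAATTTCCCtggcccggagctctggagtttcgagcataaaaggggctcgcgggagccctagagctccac
Ccl9: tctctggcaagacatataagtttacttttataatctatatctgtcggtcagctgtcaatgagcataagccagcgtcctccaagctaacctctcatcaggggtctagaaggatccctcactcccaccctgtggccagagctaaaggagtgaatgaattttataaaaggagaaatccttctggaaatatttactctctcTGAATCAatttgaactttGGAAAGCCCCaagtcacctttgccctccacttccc
Ccl20: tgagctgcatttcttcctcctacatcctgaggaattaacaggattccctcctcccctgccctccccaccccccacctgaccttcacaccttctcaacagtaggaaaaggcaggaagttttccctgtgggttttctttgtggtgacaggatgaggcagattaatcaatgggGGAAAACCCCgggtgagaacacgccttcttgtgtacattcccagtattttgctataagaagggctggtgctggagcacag

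An NF-kB match was present in 7 of the 27 ligand stretches (25.9%) and in 7.25% of all 32851 stretches of the table. The ISRE core was present in 3 ligands (11.1%) and 2.98% of all stretches, and TGANTCA in 3 ligands (11.1%) and 6.75% of all stretches. Each ligand was counted with 1 stretch, whereas the 32851 stretches were of 27025 genes, so that the shares are of unlike units. Ccl1, 1 of the 7 ligands with an NF-kB match, was read at a start 125878 bases from its GENCODE start. No stretch was held for Ccl2, Ccl5, Ccl7, Cxcl5 or Cxcl16. All of these are matches of letters and not measured binding sites.

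In CFs at 24 h, medium from myocytes given ENPP1+ATP changed 13 of the 21 tested ligands against vehicle medium, 3 higher and 10 lower, where 49.1% of all tested genes were called, 23.9% higher and 25.3% lower. AMP medium changed 11 ligands, 4 higher and 7 lower, against 52.8% of all genes (25.3% higher and 27.5% lower). With AMP the share of ligands called was near that of all genes. The median log2 fold change over the 21 ligands was -0.43 with ENPP1+ATP and 0.03 with AMP, and that over all genes was -0.00 and -0.01.

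**Figure D1:**
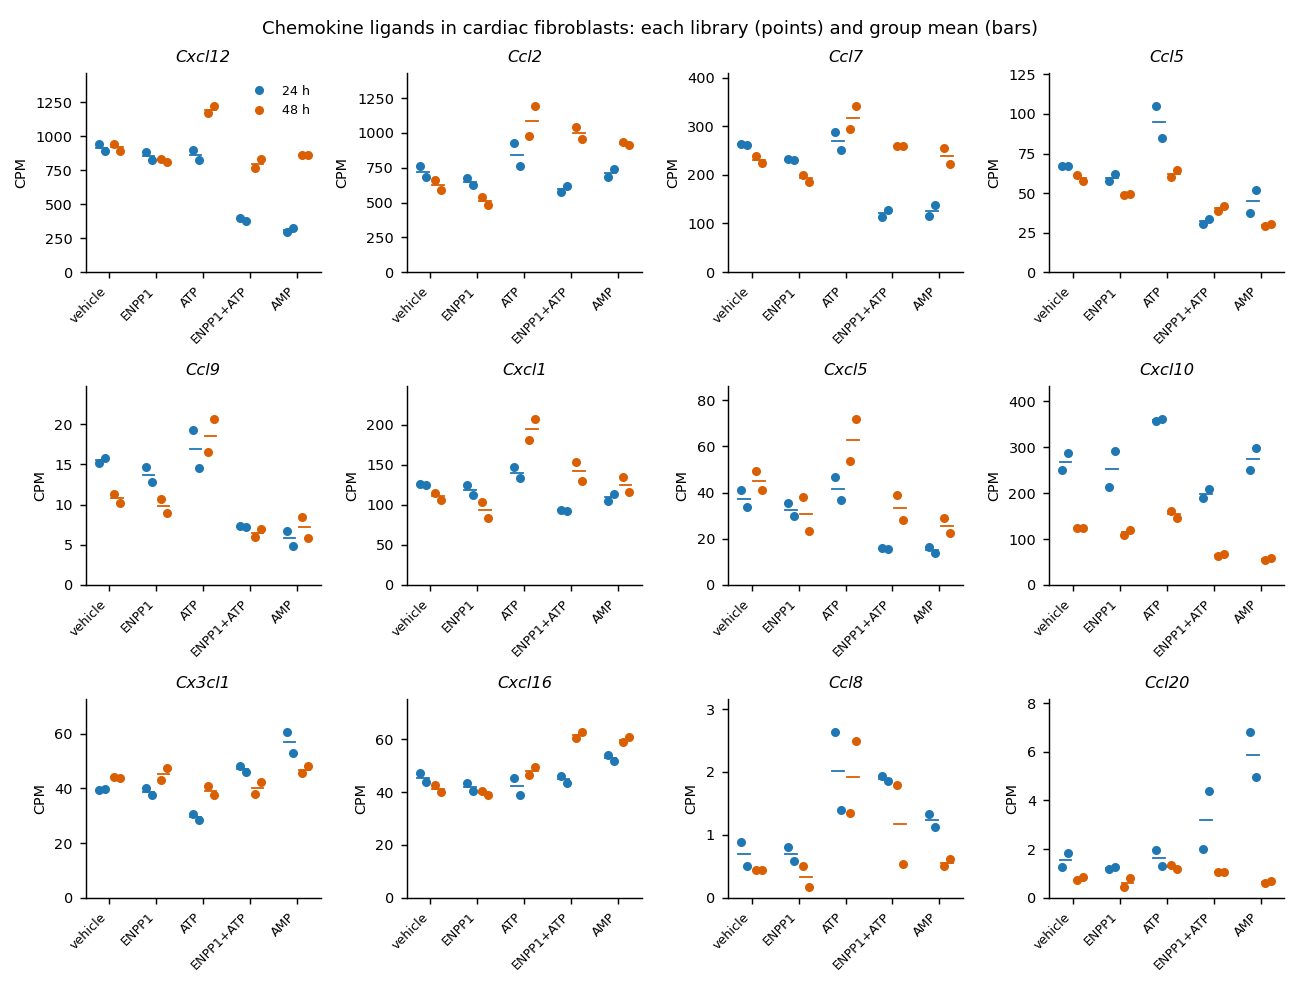
Level of 12 ligands in CFs, in CPM on a linear axis from 0, by conditioned medium. Points are the 2 libraries of each group at 24 h (blue) and 48 h (orange) and short bars are group means. Cxcl12 and Ccl7 at 24 h were lower in both ENPP1+ATP and both AMP libraries than in every vehicle library, and at 48 h they were back near the vehicle level.

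Cxcl12, the ligand of CXCR4, had the most reads of all ligands in CFs with vehicle medium. It was at 941 and 891 CPM with vehicle medium at 24 h, at 398 and 379 CPM with ENPP1+ATP and at 298 and 327 CPM with AMP, so that the groups did not overlap. The log2 fold change was -1.24 ± 0.06 (SE, adjusted p = 1.05e-14) with ENPP1+ATP and -1.55 ± 0.06 (adjusted p = 1.27e-16) with AMP. Against ATP medium (899 and 826 CPM), the ENPP1+ATP level was lower by -1.15 ± 0.06 on the log2 scale (adjusted p = 1.75e-13). At 48 h Cxcl12 was at 943 and 895 CPM with vehicle, 765 and 832 CPM with ENPP1+ATP and 866 and 864 CPM with AMP. The remaining difference with ENPP1+ATP was -0.20 ± 0.06 (adjusted p = 0.00438), a call that was lost without ENPP1+ATP replicate 1 or vehicle replicate 1 (adjusted p up to 0.103), and with AMP it was -0.09 and not called.

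Of the 3 tested ligands placed in the CCR2 group, Ccl7 fell at 24 h. It went from 264 and 262 CPM with vehicle to 114 and 127 CPM with ENPP1+ATP and 115 and 138 CPM with AMP. These are log2 fold changes of -1.12 ± 0.10 (adjusted p = 7.14e-08) and -1.05 ± 0.10 (adjusted p = 1.21e-07). At 48 h Ccl7 was at 239 and 224 CPM with vehicle, 259 and 258 CPM with ENPP1+ATP and 256 and 222 CPM with AMP, and neither difference was called. Its neighbour Ccl2 behaved otherwise. It was at 762 and 683 CPM with vehicle at 24 h, 572 and 616 CPM with ENPP1+ATP and 684 and 739 CPM with AMP. The fall with ENPP1+ATP was -0.28 ± 0.11 (adjusted p = 0.047), and this call was lost with DESeq2, with upper quartile scaling and without ENPP1+ATP replicate 1 or 2 or vehicle replicate 1 (adjusted p up to 0.263). At 48 h Ccl2 was higher in both media, at 1040.1 and 954 CPM with ENPP1+ATP and 935 and 911 CPM with AMP against 660.3 and 587 CPM with vehicle. The log2 fold changes were 0.68 ± 0.11 (adjusted p = 0.00017) and 0.57 ± 0.11 (adjusted p = 0.000805). Per kilobase of exon, Ccl2 had the highest level of the ligands in vehicle medium at 24 h (mean 635 CPM per kb), followed by Ccl7 (328), Cxcl10 (119), Cxcl12 (112), Ccl5 (69.9) and Cxcl1 (66.7).

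Ccl8 was present at few reads, at 0.885 and 0.504 CPM with vehicle and 1.93 and 1.86 CPM with ENPP1+ATP at 24 h. Its log2 fold change of 1.39 ± 0.46 (adjusted p = 0.014) lost its call without ENPP1+ATP replicate 1 or vehicle replicate 2 (adjusted p up to 0.125). At 48 h the ENPP1+ATP libraries stood apart from each other at 1.79 and 0.541 CPM, against 0.442 and 0.437 CPM with vehicle. The log2 fold change of 1.42 ± 0.51 (adjusted p = 0.0244) was not called without ENPP1+ATP replicate 1 or either vehicle library, with an adjusted p of up to 0.718.

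Ccl5 and Ccl9, ligands of CCR1, were lower with both media at both times. Ccl5 was at 67.2 and 67.0 CPM with vehicle at 24 h, 30.5 and 33.5 CPM with ENPP1+ATP and 37.4 and 51.9 CPM with AMP, which gave -1.07 ± 0.12 (adjusted p = 1.68e-06) and -0.58 ± 0.12 (adjusted p = 0.000565). At 48 h it was at 61.7 and 57.7 CPM with vehicle, 38.7 and 41.9 CPM with ENPP1+ATP and 29.1 and 30.2 CPM with AMP, with log2 fold changes of -0.57 ± 0.12 (adjusted p = 0.00102) and -1.01 ± 0.12 (adjusted p = 4.52e-06). All treated libraries were below all vehicle libraries of their time. Ccl9 was at 15.2 and 15.8 CPM with vehicle at 24 h, 7.29 and 7.24 CPM with ENPP1+ATP and 6.76 and 4.90 CPM with AMP. Its log2 fold changes were -1.09 ± 0.17 (adjusted p = 1.38e-05) and -1.43 ± 0.17 (adjusted p = 3.22e-07). At 48 h vehicle was at 11.3 and 10.3 CPM, ENPP1+ATP at 5.92 and 6.95 CPM (-0.75 ± 0.18, adjusted p = 0.00147) and AMP at 8.46 and 5.90 CPM (-0.59 ± 0.17, adjusted p = 0.00862). The AMP call at 48 h was lost without AMP replicate 2 or vehicle replicate 1 (adjusted p up to 0.184).

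The neutrophil-attracting ligands Cxcl1 and Cxcl5 fell at 24 h with ENPP1+ATP and, for Cxcl5, with AMP. Cxcl5 was at 40.9 and 33.7 CPM with vehicle, 15.8 and 15.4 CPM with ENPP1+ATP and 16.4 and 14.0 CPM with AMP, with log2 fold changes of -1.27 ± 0.27 (adjusted p = 0.00236) and -1.31 ± 0.27 (adjusted p = 0.00153). Cxcl1 was at 126 and 124 CPM with vehicle, 93.8 and 92.4 CPM with ENPP1+ATP (-0.43 ± 0.11, adjusted p = 0.00408) and 105 and 114 CPM with AMP (-0.19, not called). At 48 h Cxcl1 was higher with ENPP1+ATP, at 153 and 130.2 CPM against 115 and 106 CPM with vehicle. That log2 fold change of 0.36 ± 0.11 (adjusted p = 0.0132) was lost without ENPP1+ATP replicate 1 or vehicle replicate 2 (adjusted p up to 0.148). ATP medium had Cxcl1 at 181 and 207 CPM at 48 h, and ENPP1+ATP medium was called lower than ATP medium. Cxcl5 at 48 h was at 49.5 and 40.9 CPM with vehicle, 38.9 and 28.0 CPM with ENPP1+ATP (-0.43, not called) and 28.8 and 22.5 CPM with AMP (-0.82 ± 0.26, adjusted p = 0.0254). The AMP call was lost without AMP replicate 2 or vehicle replicate 1 (adjusted p up to 0.172). Cxcl2 and Cxcl3 had at most 26 and 27 reads in a CF library and were not called against vehicle at either time. The other tested ligands that were never called against vehicle were Ccl17 (0.0218 to 0.679 CPM over the 20 libraries), Ccl4 (0.0230 to 0.681 CPM) and Cxcl14 (0 to 0.542 CPM).

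Cxcl10, the interferon-induced CXCR3 ligand, was lower with both media at 48 h. With vehicle medium it was at 249 and 287 CPM at 24 h and at 123 and 124 CPM at 48 h, and it was called between the vehicle groups of the 2 times (-1.12 ± 0.13, adjusted p = 0.000531). That comparison called 1 ligand with edgeR as reported, 2 with DESeq2 or with the replicate number as a block, 6 with no low-count filter and 7 with only the libraries compared, where 4.88% of all genes were called (1.68% higher and 3.20% lower). At 24 h it was at 189 and 209 CPM with ENPP1+ATP (-0.43 ± 0.13, adjusted p = 0.0154, lost without ENPP1+ATP replicate 1 or vehicle replicate 2 with an adjusted p of up to 0.125) and at 250.4 and 297 CPM with AMP (0.03, not called). At 48 h it was at 63.8 and 66.5 CPM with ENPP1+ATP and 54.0 and 59.1 CPM with AMP, for log2 fold changes of -0.92 ± 0.14 (adjusted p = 0.000128) and -1.12 ± 0.14 (adjusted p = 2.52e-05). Cxcl9 had 10 and 8 reads in the vehicle libraries at 48 h and 0 in all libraries of both treated groups, which is at least 4.72-fold lower with ENPP1+ATP and at least 5.03-fold lower with AMP, when 0 is read as a limit of 3 reads over the group.

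Of 20 other interferon-stimulated genes tested from a fixed list, 1 was higher and 11 were lower with ENPP1+ATP at 24 h and 2 and 10 with AMP, where 25.3% and 27.5% of all genes were lower. At 48 h 0 were higher and 17 lower with ENPP1+ATP and 0 and 18 with AMP, where 24.4% and 22.9% of all genes were lower. Mx1, an antiviral GTPase, had a log2 fold change of -2.37 ± 0.46 with ENPP1+ATP and -2.54 ± 0.46 with AMP at 48 h, and Isg15, a ubiquitin-like modifier, of -1.07 ± 0.14 and -1.08 ± 0.14. Of 19 NF-kB components and feedback genes, 9 were higher and 5 lower with ENPP1+ATP at 24 h and 11 and 3 with AMP, where 23.9% and 25.3% of all genes were higher. At 48 h 9 were higher and 2 lower with either medium, where 20.8% (ENPP1+ATP) and 21.1% (AMP) of all genes were higher. Among them Tnfaip3, an inhibitor of NF-kB signalling, was higher by 0.92 ± 0.07 with ENPP1+ATP and 1.16 ± 0.07 with AMP at 24 h.

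Of the membrane-bound ligands, Cx3cl1 rose at 24 h and Cxcl16 at 48 h. Cx3cl1 was at 39.3 and 39.7 CPM with vehicle at 24 h, 48.2 and 45.9 CPM with ENPP1+ATP and 60.6 and 53.1 CPM with AMP. The log2 fold changes were 0.25 ± 0.07 (adjusted p = 0.00546, and 0.0584 without ENPP1+ATP replicate 1) and 0.52 ± 0.07 (adjusted p = 1.09e-06). At 48 h it was not called with either medium, at 44.1 and 44.0 CPM for vehicle, 38.1 and 42.4 CPM for ENPP1+ATP and 45.7 and 48.1 CPM for AMP. Cxcl16 was at 47.1 and 43.8 CPM with vehicle at 24 h, 46.2 and 43.5 CPM with ENPP1+ATP and 54.1 and 51.9 CPM with AMP (0.22 ± 0.07, adjusted p = 0.0095, lost without AMP replicate 1 or vehicle replicate 2 with an adjusted p of up to 0.130). At 48 h it was higher in both media, at 60.4 and 62.7 CPM with ENPP1+ATP and 58.8 and 60.8 CPM with AMP against 42.6 and 39.9 CPM with vehicle. These are log2 fold changes of 0.58 ± 0.07 (adjusted p = 1.98e-07) and 0.53 ± 0.07 (adjusted p = 6.44e-07), and the groups did not overlap.

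Ccl20, the ligand of CCR6 on dendritic cells and lymphocytes, was the ligand with the largest rise with AMP among those called at 24 h. It was at 1.25 and 1.85 CPM with vehicle, 2.01 and 4.39 CPM with ENPP1+ATP and 6.81 and 4.97 CPM with AMP. The AMP difference was 1.95 ± 0.31 (adjusted p = 1.04e-05). The ENPP1+ATP difference was 1.08 ± 0.32 (adjusted p = 0.00629) and was lost without ENPP1+ATP replicate 2 or vehicle replicate 1 (adjusted p up to 0.394). At 48 h Ccl20 was between 0.601 and 1.06 CPM in vehicle, ENPP1+ATP and AMP libraries and was not called.

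Ccl27a, a ligand of CCR10, was lower with both media at both times. It was at 3.71 and 3.24 CPM with vehicle, 1.71 and 1.52 CPM with ENPP1+ATP and 1.85 and 2.31 CPM with AMP at 24 h (-1.12 ± 0.24, adjusted p = 0.000432, and -0.73 ± 0.23, adjusted p = 0.00964). At 48 h it was at 3.87 and 4.56 CPM with vehicle, 2.34 and 2.87 CPM with ENPP1+ATP and 3.13 and 1.85 CPM with AMP (-0.70 ± 0.23, adjusted p = 0.0175, and -0.76, adjusted p = 0.01). Without 1 library, the adjusted p reached 0.0905 for AMP at 24 h (AMP replicate 1 or vehicle replicate 1), 0.128 for ENPP1+ATP at 48 h (ENPP1+ATP replicate 1 or vehicle replicate 2) and 0.221 for AMP at 48 h (AMP replicate 2 or vehicle replicate 2). Ccl25, a ligand of CCR9, was at 5.25 and 5.88 CPM with vehicle and 6.86 and 8.03 CPM with AMP at 24 h (0.43 ± 0.14, adjusted p = 0.00969, up to 0.146 without AMP replicate 2 or vehicle replicate 1). Cxcl13, the B cell attractant, had 20 and 12 reads in the vehicle libraries at 24 h, 1 and 0 with ENPP1+ATP and 0 in both AMP libraries. The vehicle level was 17.5 times that with ENPP1+ATP (95% counting interval 2.92 to 711), a call that was lost without ENPP1+ATP replicate 2 or vehicle replicate 2 (adjusted p up to 0.1197), and with AMP it was at least 8.05-fold lower. At 48 h Cxcl13 had 4 and 5 reads with vehicle and 0 in all libraries of either treated group, and its call was lost whichever library of the comparison was left out.

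**Figure D2:**
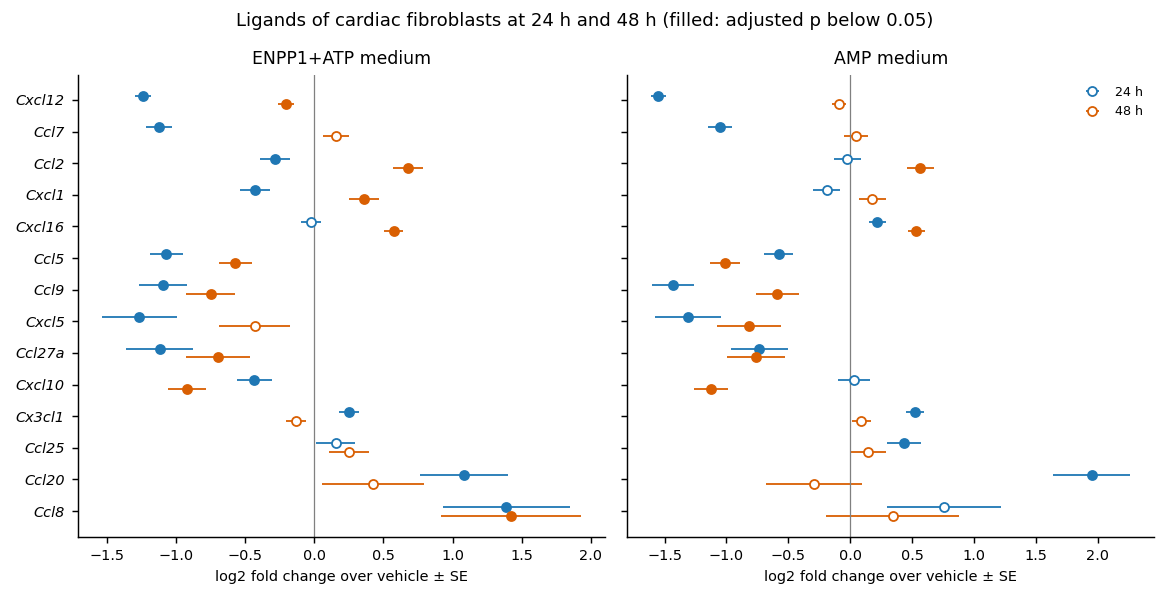
Log2 fold change over vehicle medium of 14 ligands in CFs with ENPP1+ATP medium (left) and AMP medium (right) at 24 h (blue) and 48 h (orange). Bars are standard errors and filled points passed an adjusted p of 0.05. With ENPP1+ATP, Ccl2 and Cxcl1 lie left of 0 at 24 h and right of 0 at 48 h, whereas Ccl5, Ccl9, Ccl27a and Cxcl10 lie left of 0 at both times.

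At 48 h the 11 ligands called with ENPP1+ATP comprised 4 higher and 7 lower, against 45.2% of all genes (20.8% higher and 24.4% lower). The 9 called with AMP comprised 2 higher and 7 lower, against 44.0% of all genes (21.1% higher and 22.9% lower). Without vehicle replicate 2 the first count was 7, and without AMP replicate 2 the second was 5. The difference between the 2 times was tested as an interaction. It was called for 8 ligands with ENPP1+ATP (30.0% of all genes) and for 9 with AMP (31.7%). The log2 fold change rose from 24 h to 48 h for Cxcl12 (by 1.03 ± 0.08 with ENPP1+ATP, adjusted p = 7.98e-10, and by 1.46 ± 0.08 with AMP, adjusted p = 2.05e-12), for Ccl7 (1.28 ± 0.13, adjusted p = 2.47e-06, and 1.097 ± 0.13, adjusted p = 1.1e-05) and for Ccl2 (0.96 ± 0.16, adjusted p = 0.000328, and 0.59 ± 0.16, adjusted p = 0.0103). It rose for Cxcl1 with ENPP1+ATP (0.79 ± 0.15, adjusted p = 0.00115). It went down with AMP for Ccl20 (-2.24 ± 0.50, adjusted p = 0.00105) and Cxcl10 (-1.16 ± 0.19, adjusted p = 0.000505), and in both media for Cx3cl1. The Ccl2 interaction with AMP had an adjusted p of 0.054 without AMP replicate 1 at 24 h.

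ATP medium, made from myocytes given ATP without ENPP1, changed fewer genes. At 24 h, 3 ligands were called, 2 higher and 1 lower, against 11.1% of all genes (4.77% higher and 6.32% lower), and 1 was called without ATP replicate 1 or either vehicle library. Ccl5 was at 105 and 85.0 CPM (0.50 ± 0.11, adjusted p = 0.00918) and Ccl8 at 2.63 and 1.40 CPM (1.48 ± 0.46, adjusted p = 0.0357). Both were lost without ATP replicate 1 or either vehicle library, with adjusted p up to 0.137 and 0.459. Cx3cl1 fell to 30.7 and 28.3 CPM (-0.42 ± 0.07, adjusted p = 0.000322). At 48 h, 6 ligands were called and all were higher, where 7.83% of all genes were called with 5.35% higher and 2.48% lower, and 3 were called without ATP replicate 2 or vehicle replicate 2. Cxcl12 was at 1171 and 1221 CPM (0.38 ± 0.06, adjusted p = 4.46e-05), Ccl2 at 978 and 1191 CPM (0.80 ± 0.11, adjusted p = 0.000352) and Cxcl1 at 181 and 207 CPM (0.81 ± 0.11, adjusted p = 0.000182), all above every vehicle library of that time. The Ccl2 call was lost with only the libraries compared (adjusted p = 0.0546). The calls of Ccl7 (295 and 341 CPM, 0.46 ± 0.09, adjusted p = 0.00541) and Ccl9 (16.5 and 20.6 CPM, 0.78 ± 0.16, adjusted p = 0.00335) were lost without ATP replicate 2 or vehicle replicate 2, with adjusted p up to 0.0747 and 0.0648. Ccl8 was at 1.35 and 2.4998 CPM (2.11 ± 0.49, adjusted p = 0.00649) and was lost without ATP replicate 2 or either vehicle library (adjusted p up to 0.126). The median over the 21 ligands at 48 h was 0.38 and that over all genes -0.01.

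ENPP1+ATP medium against ATP medium gave 14 called ligands at 24 h, 3 higher and 11 lower (43.9% of all genes, 21.8% higher and 22.1% lower). It gave 9 at 48 h, 1 higher and 8 lower (39.5%, 18.2% higher and 21.3% lower). At 24 h the log2 differences were -1.57 for Ccl5, -1.42 for Cxcl5, -1.22 for Ccl9, -1.16 for Ccl7 and -0.85 for Cxcl10, and Cx3cl1 was higher by 0.67. The others that were higher were Ccl17, at 24 and 30 reads against 1 and 7 with ATP (2.77 ± 0.77, adjusted p = 0.00473), and Ccl20 (0.97 ± 0.32, adjusted p = 0.0163). At 48 h they were -1.53 for Ccl9, -1.24 for Cxcl10 and -0.58 for Cxcl12, and Cxcl16 was higher by 0.36. Cxcl1 was among the ligands called lower at 48 h, at 153 and 130.2 CPM against 181 and 207 CPM with ATP. AMP medium against ENPP1+ATP medium gave 4 called ligands at 24 h (6.25% of all genes, 2.60% higher and 3.65% lower), with Ccl5 higher by 0.49, Cx3cl1 by 0.27 and Cxcl16 by 0.24 and Cxcl12 lower by -0.31. That count was 1 or 2 when any 1 of the 4 libraries was left out. At 48 h this comparison called 0 ligands and 0.162% of all genes (0.0895% higher and 0.0727% lower) with edgeR. In that comparison 4 ligands had an unadjusted p under 0.05, and DESeq2 called 1.

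ENPP1 medium without ATP gave 0 called ligands and 0% of all genes at either time with edgeR and 0 ligands with DESeq2, but 5 ligands at 48 h with no low-count filter. At 24 h 0 ligands had an unadjusted p under 0.05. At 48 h 5 had, with log2 fold changes of -0.29 for Ccl2, -0.28 for Ccl5, -0.26 for Ccl7, -0.24 for Cxcl1 and -0.16 for Cxcl12. Cxcl12 in these libraries was at 882 and 824 CPM at 24 h and 836 and 809 CPM at 48 h.

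Few chemokine receptors were tested in CFs. Cxcr4, the receptor of CXCL12, rose with ENPP1+ATP from a mean of 0.102 to 0.611 CPM at 24 h (2.46 ± 0.62, adjusted p = 0.00181) and with AMP to 0.622 CPM (2.497 ± 0.61, adjusted p = 0.00127), and was higher at 48 h too (1.87 ± 0.63 and 2.84 ± 0.61). Ackr3, which scavenges CXCL12, fell at 24 h from a mean of 3.16 CPM to 1.03 CPM with ENPP1+ATP (-1.61 ± 0.28, adjusted p = 2.92e-05) and 1.19 CPM with AMP (-1.44 ± 0.27, adjusted p = 7.02e-05). At 48 h the Ackr3 differences were -0.26 and -0.23 and were not called.

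Cell markers moved in the same libraries. The 10 fibroblast markers summed to 7220 to 7625 CPM with vehicle at 24 h, 3611 to 3707 CPM with ENPP1+ATP and 2831 to 3055 CPM with AMP, and to 7128 to 7541, 3880 to 4096 and 4077 to 4362 CPM at 48 h. The 10 macrophage markers summed to 7.62 to 7.85 CPM with vehicle at 24 h, 26.3 to 30.8 CPM with ENPP1+ATP and 48.7 to 49.97 CPM with AMP, and to 10.1 to 11.1, 60.2 to 69.5 and 65.5 to 75.5 CPM at 48 h. All 10 had reads, C1qa was at most 0.167 CPM in any CF library and Cd68 reached 64.8 CPM. The 8 smooth muscle or pericyte markers summed to 114 to 119 CPM with vehicle at 24 h, 159 to 161 CPM with ENPP1+ATP and 165 to 178 CPM with AMP, and to 127 to 132, 351 to 363 and 395 to 421 CPM at 48 h. The 7 monocyte markers stayed between 71.8 and 86.1 CPM in these groups at 24 h and were at 58.9 to 65.7, 141 to 147 and 135 to 167 CPM at 48 h. With ATP medium the monocyte markers summed to 85.2 to 85.8 CPM at 24 h and 118 to 122 CPM at 48 h. The fibroblast markers with ATP medium summed to 5235 to 5571 CPM at 24 h and 6939 to 6949 CPM at 48 h. All 6 cell cycle markers were higher with ENPP1+ATP and with AMP at both times. In bulk samples fewer cells of a type and less RNA per cell cannot be told apart, and the part of these shifts in the ligand values was not tested.

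By Pearson correlation of log2 CPM over the 20 CF libraries, the genes closest in pattern to Cxcl12 were Ctps2 (0.987), Mesdc2 (0.981) and Elmo1 (0.976), those closest to Ccl2 were Steap2 (0.930), Traf3ip2 (0.915) and Ptgs1 (0.900), and those closest to Ccl7 were Rps4x (0.957), Rpl31 (0.957) and Rpl23 (0.952). These are descriptions over libraries that share their groups.

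In NRVMs at 24 h ENPP1+ATP changed 7 of the 11 tested ligands, all higher, where 56.0% of all genes were called, 28.6% higher and 27.4% lower. AMP changed 6, 5 higher and 1 lower (57.2% of all genes, 29.2% higher and 28.0% lower), and ATP 7, 6 higher and 1 lower (59.9%, 30.2% higher and 29.7% lower). The 3 comparisons share the vehicle libraries. Median log2 fold changes over the ligands were 0.72, 0.61 and 0.42, and those over all genes were near 0.01. ENPP1 alone called 0 ligands and 0% of all genes with edgeR, 0 ligands had an unadjusted p under 0.05 and DESeq2 called 0.

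**Figure D3:**
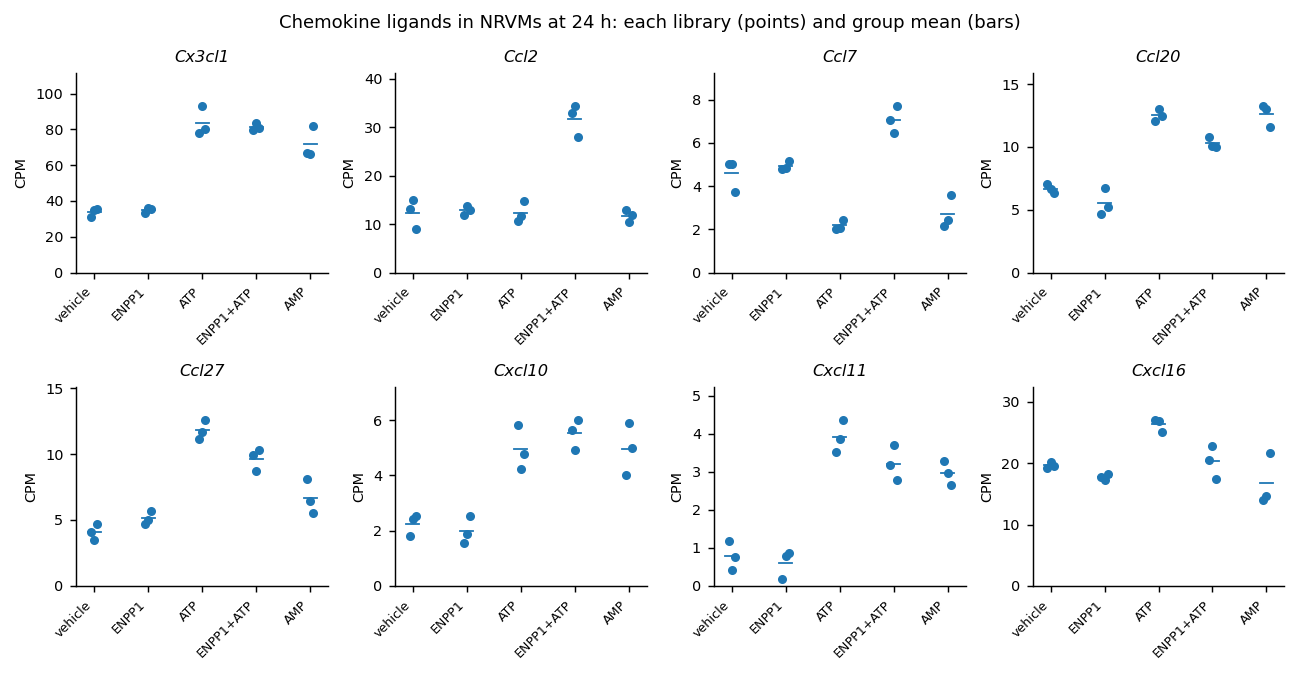
Level of 8 ligands in NRVMs at 24 h, in CPM on a linear axis from 0, by medium. Points are the 3 libraries of a group and short bars are group means. Cx3cl1, Cxcl10 and Cxcl11 were higher with ATP, ENPP1+ATP and AMP alike, whereas Ccl2 was higher in the 3 ENPP1+ATP libraries only.

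Cx3cl1 was the ligand with the most reads in NRVMs. It was at 31.1, 34.9 and 35.3 CPM with vehicle, 79.5, 83.7 and 80.7 CPM with ENPP1+ATP, 66.7, 66.5 and 81.7 CPM with AMP and 78.1, 92.8 and 80.0 CPM with ATP. No treated library of these 3 media overlapped vehicle. The log2 fold changes were 1.27 ± 0.08 (adjusted p = 2.69e-14), 1.08 ± 0.08 (adjusted p = 1.1e-12) and 1.31 ± 0.08 (adjusted p = 8.96e-15), and with ENPP1 the gene was at 33.4, 36.2 and 35.6 CPM.

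The CXCR3 ligands rose with the same 3 media. Cxcl10 was at 1.79, 2.41 and 2.51 CPM with vehicle, 5.64, 4.92 and 6.01 CPM with ENPP1+ATP, 4.01, 5.88 and 4.98 CPM with AMP and 5.83, 4.21 and 4.76 CPM with ATP. Cxcl11 was at 1.17, 0.413 and 0.761 CPM with vehicle, 3.17, 3.70 and 2.78 CPM with ENPP1+ATP, 3.29, 2.97 and 2.66 CPM with AMP and 3.54, 3.86 and 4.37 CPM with ATP. All libraries of the 3 media were above all vehicle libraries for both genes. The log2 fold changes of Cxcl10 were 1.30 ± 0.21, 1.15 ± 0.22 and 1.14 ± 0.21 (adjusted p = 1.31e-06, 1.42e-05 and 1.37e-05), and those of Cxcl11 were 2.03 ± 0.32, 1.92 ± 0.32 and 2.31 ± 0.31 (adjusted p = 6.11e-07, 2.1e-06 and 1.76e-08). Of 15 interferon-stimulated genes tested in NRVMs, 7 were higher and 2 lower in each of the 3 media, where 28.6% to 30.2% of all genes were higher and 27.4% to 29.7% lower. Gbp2, an interferon-induced GTPase, was higher by 2.00 ± 0.11 with ENPP1+ATP, whereas Ifit2 was lower by -1.69 ± 0.12.

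Ccl2 and Ccl7 separated ENPP1+ATP from AMP and ATP. Ccl2 was at 13.2, 14.9 and 9.05 CPM with vehicle and 33.0, 34.3 and 27.9 CPM with ENPP1+ATP (1.35 ± 0.14, adjusted p = 3.2e-08). It was at 13.0, 10.4 and 11.9 CPM with AMP and 10.5, 11.6 and 14.8 CPM with ATP, both overlapping vehicle. Ccl2 with ENPP1+ATP was above ATP by 1.37 ± 0.14 (adjusted p = 8.51e-08), and AMP was below ENPP1+ATP by -1.43 ± 0.14 (adjusted p = 2.6e-07). Ccl7 was at 5.02, 5.03 and 3.73 CPM with vehicle and 7.04, 6.45 and 7.69 CPM with ENPP1+ATP. It was lower with AMP, at 2.17, 2.44 and 3.58 CPM, and with ATP, at 2.03, 2.08 and 2.44 CPM. The log2 fold changes were 0.61 ± 0.18 (adjusted p = 0.00277, and 0.0853 without replicate 3 of each group), -0.76 ± 0.20 (adjusted p = 0.0012, and 0.0683 without replicate 1) and -1.08 ± 0.20 (adjusted p = 1.6e-05). Ccl7 with ENPP1+ATP was above ATP by 1.69 ± 0.19 (adjusted p = 2.13e-09). ENPP1+ATP against ATP called 3 ligands in all, 2 higher and 1 lower (27.5% of all genes, 14.1% higher and 13.5% lower). AMP against ENPP1+ATP called 3, all lower (9.66% of all genes, 5.81% higher and 3.85% lower).

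Ccl20 and Ccl27 rose with the same 3 media. Ccl20 was at 7.01, 6.68 and 6.31 CPM with vehicle, 10.8, 10.1 and 10.0 CPM with ENPP1+ATP, 13.2, 13.0 and 11.6 CPM with AMP and 12.05, 13.1 and 12.5 CPM with ATP, for log2 fold changes of 0.62 ± 0.13, 0.92 ± 0.13 and 0.91 ± 0.13. Ccl27 was at 4.06, 3.51 and 4.72 CPM with vehicle, 9.93, 8.69 and 10.3 CPM with ENPP1+ATP, 8.09, 6.41 and 5.54 CPM with AMP and 11.1, 11.7 and 12.6 CPM with ATP, for 1.24 ± 0.16, 0.71 ± 0.16 and 1.53 ± 0.15. AMP was below ENPP1+ATP for Ccl27 by -0.52 ± 0.14 (adjusted p = 0.0118). Cxcl16 was at 19.3, 20.2 and 19.5 CPM with vehicle and rose with ATP to 27.1, 26.9 and 25.0 CPM (0.42 ± 0.11, adjusted p = 0.00195).

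Cxcl12, Cxcl1 and Cxcl3 were not called against vehicle in NRVMs. Over the 15 libraries Cxcl1 was at 0.685 to 2.77 CPM and Cxcl3 at 0.191 to 1.03 CPM. Cxcl12 was at 7.98, 9.78 and 8.67 CPM with vehicle, 4.93, 11.1 and 5.62 CPM with ENPP1+ATP and 7.37, 5.28 and 28.2 CPM with AMP. In that last library, AMP replicate 3, the endothelial markers summed to 96.3 CPM against 37.6 and 45.2 CPM in the other AMP libraries, and the macrophage markers to 151 CPM against 87.9 and 88.8 CPM. The 7 endothelial markers in the table summed to 28.1 to 35.5 CPM with vehicle, 43.8 to 48.0 CPM with ENPP1+ATP and 62.2 to 85.0 CPM with ATP, and the 9 macrophage markers to 40.9 to 63.5, 69.4 to 78.9 and 70.6 to 95.8 CPM. C1qa was at most 0.228 CPM in NRVMs. The 9 fibroblast markers summed to 24942 to 26324 CPM with vehicle, 8451 to 8914 CPM with ENPP1+ATP, 11730.3 to 12525 CPM with AMP and 10552 to 11893 CPM with ATP. The 8 cardiomyocyte markers summed to 27149 to 28039 CPM with vehicle, 22810 to 23807 CPM with ENPP1+ATP, 26374 to 27897 CPM with AMP and 15264 to 16240 CPM with ATP. The 4 monocyte markers in the table summed to 245 to 279 CPM with vehicle and to 79.3 to 117 CPM in the libraries of those 3 media. Their part in the ligand values was not tested. By Pearson correlation over the 15 libraries, the genes most like Cx3cl1 in pattern were Cd1d1 (0.987), Ampd3 (0.987) and Grina (0.985), those most like Cxcl16 were Sun2 (0.945), Lgals9 (0.923) and AC141102.1 (0.898), and those most like Ccl2 were Ankh (0.867), Msi2 (0.845) and Cntnap1 (0.840).

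Nonmyocytes of the injured heart were grouped by clustering without the ligand genes and named from markers fixed in a list. After removal of predicted doublets there were 7255 ENPP1CKO cells and 5240 control cells, and 68 barcodes occurred in both libraries. Counts of 34 of the 37 ligands were found, and Ccl21b, Ccl26 and Ccl27b had 0. With 1 library per genotype no difference between genotypes has a replicate check, no p-value is given, and the intervals (95%, exact) cover counting error only. The 2 libraries also differ in how their cells fall into clusters. Fibroblast-like cells (3714 ENPP1CKO and 1855 control) were most numerous in cluster 2 in the ENPP1CKO library (1564 cells, 283 in control) and in cluster 0 in the control library (1131 cells, 1025 in ENPP1CKO), and macrophage-like cells (2055 and 2471) included cluster 6 with 52 ENPP1CKO and 809 control cells.

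**Figure D4:**
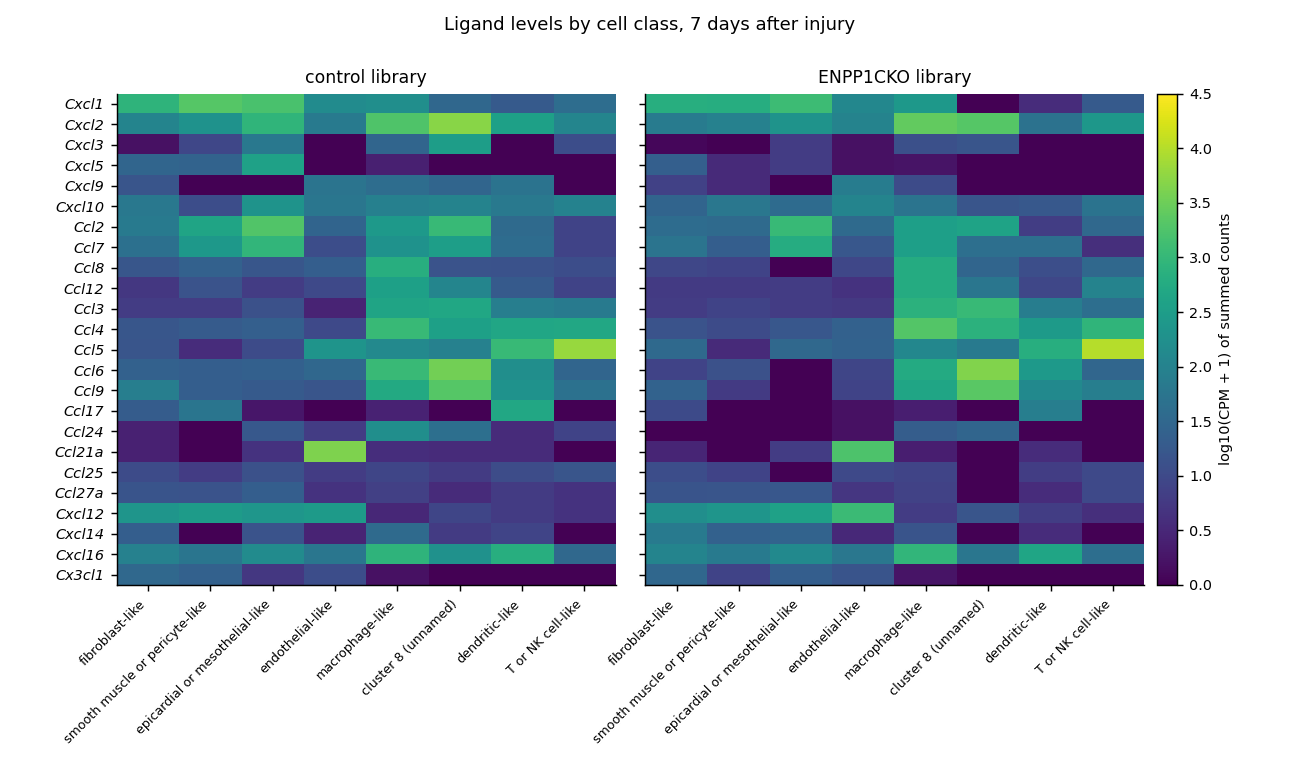
Level of 24 ligands in 8 cell classes of the control library (left) and the ENPP1CKO library (right), as log10 of summed CPM plus 1 on a color scale from 0 to 4.5. Macrophage-like cells and the unnamed cluster 8 carry Cxcl2, Ccl3, Ccl4, Ccl6 and Ccl9, endothelial-like cells carry Ccl21a, and T or NK cell-like cells carry Ccl5, in both libraries. Ccl6 and Ccl9 were higher in cluster 8 than in macrophage-like cells.

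Most ligands came mainly from 1 class in both libraries. Macrophage-like cells held 96.3% (control) and 97.0% (ENPP1CKO) of the Ccl12 counts, 96.5% and 96.1% of Ccl8, 91.6% and 96.1% of Ccl3 and 82.2% and 75.5% of Cxcl16. Fibroblast-like cells held 92.7% and 93.3% of Cx3cl1 and 68.1% and 81.2% of Cxcl1. Endothelial-like cells held 98.1% and 98.6% of Ccl21a, the CCR7 ligand of lymphatic vessels, T or NK cell-like cells 89.8% and 95.5% of Xcl1, which attracts cross-presenting dendritic cells, and dendritic-like cells 82.0% and 81.2% of Ccl22, a CCR4 ligand. The source of other ligands differed between the libraries. Cxcl12 counts were 80.2% fibroblast-like with control and 55.7% with ENPP1CKO, where endothelial-like cells held 39.9% against 5.7%. Cxcl5 counts were 57.2% epicardial or mesothelial-like with control and 0.3% with ENPP1CKO. These shares move with the number of cells of each class.

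To gauge free RNA, the level of C1qa, C1qb and C1qc in other classes was set against their macrophage-like level. In fibroblast-like cells it was 0.896% of that level (ENPP1CKO) and 1.67% (control), in endothelial-like cells 1.11% and 1.61%, and in T or NK cell-like cells 11.3% and 1.83%. Cxcl1 in fibroblast-like cells was at 261% (ENPP1CKO) and 514% (control) of its macrophage-like level, and Ccl2 in epicardial or mesothelial-like cells at 301% and 727%.

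In macrophage-like cells the summed level of all ligands was 9613 CPM (ENPP1CKO) against 7967 CPM (control), and the log2 ratio was 0.27 (0.26 to 0.29). Of 24 ligands with at least 20 counts, 1 was over 2-fold higher and 7 were over 2-fold lower. Of all genes of that depth 6.00% were past 2-fold, 1.31% higher and 4.69% lower. The median log2 ratio was -0.12 for the ligands and -0.13 for all genes. The ligand over 2-fold higher was Cxcl12, at 38 and 19 counts (1.25, 0.42 to 2.13), or 5.32 and 2.23 CPM where endothelial-like cells were at 1154 and 288 CPM and fibroblast-like cells at 168 and 220.0 CPM. Its sign turned when the ligands were kept in the clustering (-0.66), and nothing is read from its ratio. Ccl4 reached 1951 CPM against 1059.6 CPM with control (log2 ratio 0.88, 0.84 to 0.92), Ccl3 at 768 and 416 CPM (0.88, 0.82 to 0.95), and Cxcl2 at 2594 and 1839 CPM (0.50, 0.47 to 0.53). Ccl7 was at 340.3 and 199 CPM (0.77, 0.68 to 0.86), Ccl12 at 589.6 and 354 CPM (0.74) and Ccl2 at 352 and 259 CPM (0.44). When every cell was thinned to 1000 counts, 42.4% of ENPP1CKO and 26.1% of control macrophage-like cells had a Ccl4 count, against 1.4% and 1.5% of fibroblast-like cells.

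Among the 7 lower ligands were Ccl24, an eosinophil attractant of CCR3, at 20.0 and 164 CPM (-3.03, -3.29 to -2.78), Ccl6 at 558 and 1119.8 CPM (-1.01, -1.06 to -0.95), Cxcl9 at 9.67 and 40.2 CPM (-2.06, -2.45 to -1.68) and Cxcl13 at 0.701 and 6.47 CPM (-3.21, -4.89 to -1.90). Cxcl14 (13.7 and 34.3 CPM, -1.32), the neutrophil attractant Cxcl3 (11.8 and 28.6 CPM, -1.28) and Ccl21a were the others. Ccl21a had 10 and 24 counts, or 1.401 and 2.82 CPM where endothelial-like cells were at 1753 and 4342 CPM, and nothing is read from its ratio. Counts of Cxcl9 and Cxcl13 lay in few cells, since the 10 highest cells held 76.8% (ENPP1CKO) and 73.7% (control) of the Cxcl9 counts and 96.4% of the Cxcl13 counts of the control library. Without cluster 6, Ccl24 was at 7.71 and 8.62 CPM (-0.16) and Ccl6 at 439 and 343 CPM (0.36), whereas Ccl4 stayed higher (0.71), as did Ccl3 (0.74) and Ccl7 (1.11), and Cxcl9 (-2.33) and Cxcl10 (53.2 and 110.0 CPM, -1.05) stayed lower. Within cluster 6 Ccl24 was at 677 and 802 CPM (-0.24) and Ccl6 at 6870.4 and 4320.2 CPM (0.67). The other clusters were not alike. Ccl4 had a log2 ratio of 1.12 in cluster 1 and 0.08 in cluster 3, Ccl8 of 0.05 and -1.31, and Cxcl2 of 0.52 and 0.33 against -0.97 in cluster 6.

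**Figure D5:**
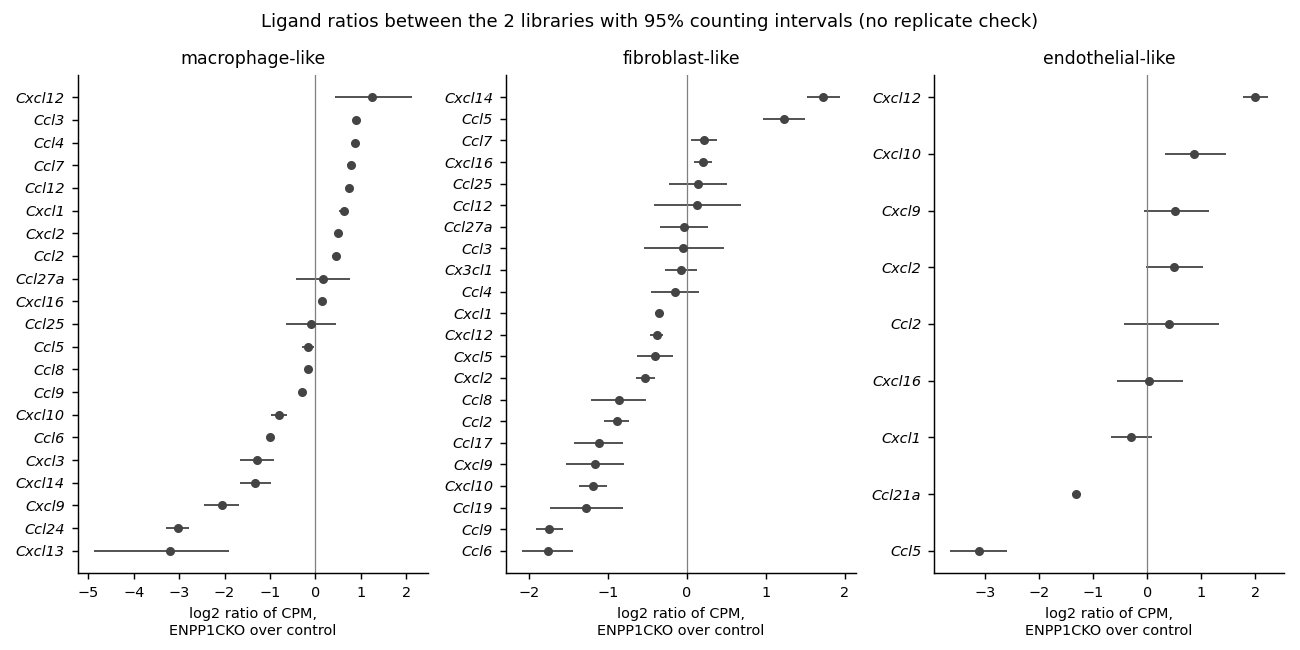
Log2 ratio of summed CPM, ENPP1CKO over control, for the ligands with at least 50 counts in macrophage-like, fibroblast-like and endothelial-like cells. Bars are 95% counting intervals between 1 library per genotype, with no replicate check. Ccl3, Ccl4 and Ccl7 lie to the right and Ccl24 and Cxcl9 to the left in macrophage-like cells, and Cxcl12 lies at 2.00 in endothelial-like cells and -0.39 in fibroblast-like cells.

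In fibroblast-like cells the summed ligand level was lower, at 1397 CPM for ENPP1CKO against 1765 CPM for control (-0.34, -0.37 to -0.31). Of 23 ligands with at least 20 counts, 2 were past 2-fold higher and 6 lower, against 5.43% of all genes (2.48% higher and 2.95% lower). The median was -0.36 against 0.01 over all genes. Cxcl1, the ligand with the most counts there, was at 661 and 847 CPM (-0.36), and was lower in each of the fibroblast-like clusters 0 (318 and 642 CPM), 2 (318 and 586 CPM), 4 (1869.8 and 2281 CPM), 10 (456 and 1269.6 CPM) and 13 (223 and 469 CPM). In thinned cells 20.2% and 27.7% had a Cxcl1 count. Cxcl12 was at 168 and 220.0 CPM (-0.39), yet its direction differed by cluster, with -0.54 in cluster 0, 1.47 in cluster 2 and 0.32 in cluster 4. Ccl2 was at 38.6 and 71.7 CPM (-0.89), with -2.64 in cluster 2, -1.50 in cluster 0 and 0.11 in cluster 10, whereas Ccl7 was at 53.0 and 45.8 CPM (0.21), with -1.81 in cluster 0 and 2.01 in cluster 4. These counts lay in few cells, since the 10 highest cells held 56.2% (ENPP1CKO) and 61.4% (control) of the Ccl2 counts, 51.0% and 58.9% of those of Ccl7 and 64.0% and 70.02% of those of Cxcl10. Ccl9 was at 25.0 and 83.8 CPM (-1.74, -1.91 to -1.57), which is 5.80% and 15.8% of its macrophage-like level. Ccl6, 1 of the 6 lower, was at 7.04 and 23.9 CPM, only 1.26% and 2.13% of its macrophage-like level and so near the free RNA level of C1q, and nothing is read from its ratio. Cxcl10 was at 26.9 and 61.4 CPM (-1.19) and most of it lay in cluster 10, which is led by interferon-stimulated genes (528 and 1033 CPM, -0.97).

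Cxcl14 went the other way in fibroblast-like cells, at 70.2 CPM for ENPP1CKO against 21.2 CPM for control (1.73, 1.52 to 1.94), and it was higher in cluster 0 (26.0 and 9.96 CPM), cluster 2 (84.1 and 23.2 CPM), cluster 4 (96.4 and 59.1 CPM) and cluster 10 (119 and 58.6 CPM), but not in cluster 13 (9 and 19 counts, 23.9 and 31.5 CPM). In thinned cells 4.3% and 1.8% had a Cxcl14 count. Ccl5 was at 32.9 and 14.1 CPM (1.22, 0.96 to 1.498), with 26.8% and 26.0% of its counts in 1 cell, where T or NK cell-like cells were at 10132 and 6390.0 CPM, and nothing is read from its ratio. Cx3cl1 was at 30.4 and 32.0 CPM (-0.07) and Cxcl16 at 108 and 93.8 CPM (0.21). In these cells the macrophage markers summed to 2608 and 1863 CPM.

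In endothelial-like cells (932 ENPP1CKO and 192 control) the summed ligand level was 3531 and 5383 CPM (-0.61, -0.67 to -0.55). Ccl21a alone made up 3020 of the 6082 ligand counts with ENPP1CKO and 2431 of the 3014 with control. The lower sum therefore rests on this ligand. Of 15 ligands with at least 20 counts, 9 were higher and 6 lower with ENPP1CKO. Their median log2 ratio was 0.38, against -0.04 over all genes. Cxcl12 reached 1154 CPM with ENPP1CKO against 288 CPM with control (log2 ratio 2.00, 1.77 to 2.25), and within cluster 5 at 1274 and 341 CPM (1.90). Cells of cluster 5 had a median of 1424 and 2618 counts, and over all endothelial-like cells Cxcl12 was found in 50.8% and 33.3%. After thinning to 1000 counts, which left out 241 ENPP1CKO and 16 control cells that were shallower, it was found in 42.3% of 691 and 17.6% of 176 endothelial-like cells. The endothelial markers also differed in these cells, summing to 27962 and 14112 CPM, and their part in the Cxcl12 difference was not tested. Of 15 ligands, 2 were past 2-fold higher (Cxcl12, and Ccl4 at 41 and 5 counts) and 5 lower, against 10.1% of all genes (5.90% higher and 4.16% lower). Ccl4 (1.22% and 0.843% of its macrophage-like level) and, among the lower ones, Ccl6 (1.35% and 2.71%), Ccl8 (1.37% and 3.22%) and Ccl9 (1.61% and 2.69%) were near the free RNA level of C1q, and nothing is read from their ratios. Cxcl10 was at 104 and 57.2 CPM (0.87, 0.32 to 1.46), and at -0.065 on the log2 scale when predicted doublets were kept. Ccl21a was at 1753 and 4342 CPM (-1.31), nearly all of it in the lymphatic cluster 16 (64 and 30 cells, 17717 and 25261 CPM). Ccl5 was at 25.0 and 216 CPM (-3.11), with 66.9% of the control counts in 1 cell.

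In smaller classes the counts were fewer. Smooth muscle or pericyte-like cells (158 and 77) had a summed ligand level of 1275 and 3603 CPM (-1.50), with Cxcl1 at 630.1 and 2021 CPM (-1.68, -1.89 to -1.48), Ccl2 at 35.7 and 429 CPM (-3.59, -4.46 to -2.82) and Ccl7 at 21.4 and 250.3 CPM (-3.55). In the control library the 10 highest cells held 90.1% of the Ccl2 and 93.6% of the Ccl7 counts. Of 9 ligands 1 was past 2-fold higher (Cxcl10, at 25 and 4 counts, with 48.0% of the ENPP1CKO counts in 1 cell) and 6 lower, against 11.7% of all genes (6.26% higher and 5.45% lower). The fibroblast markers in this class summed to 6684 and 12276 CPM and the monocyte markers to 57.1 and 972 CPM, and their part was not tested. Epicardial or mesothelial-like cells (29 and 115) had Ccl2 at 1059 and 1883 CPM (-0.83), Cxcl1 at 1202 and 1610.2 CPM (-0.42) and Cxcl5 at 1 count against 433 (-6.17, -11.5 to -3.68). Of 15 ligands 8 were past 2-fold, 7 of them lower (18.1% of all genes, 6.46% higher and 11.7% lower). In 1 ENPP1CKO cell lay 53.5% of the Ccl2 counts of that library. The epicardial or mesothelial markers also differed in this class, summing to 2166 and 507 CPM, and their part was not tested.

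Dendritic-like cells (81 and 92) had a lower summed level, at 2248 and 3929 CPM (-0.81), and 4 of 12 ligands were past 2-fold, all lower (11.5% of all genes, 2.77% higher and 8.71% lower). The summed ligand ratio was -0.29 in thinned cells, and 74.7% of the ENPP1CKO counts of Ccl5 were in 1 cell. The dendritic markers summed to 1140 and 1843 CPM, a difference whose part was not tested. They did not move alike, since among them Ccr7 was at 320.0 and 968 CPM and Xcr1 at 129 and 72.7 CPM. Ccl17, a ligand of CCR4, was at 82.0 and 496 CPM (-2.60, -3.20 to -2.04), with 15 of the 30 ENPP1CKO counts and 38.9% of the control counts in 1 cell. T or NK cell-like cells (177 and 137) had a summed level of 12046 and 7929 CPM (0.60, 0.53 to 0.68), Ccl5 at 10132 and 6390.0 CPM (0.66, 0.58 to 0.75) and Xcl1 at 318 and 503 CPM (-0.66). In them 2 of 9 ligands were past 2-fold, both higher (8.84% of all genes, 3.01% higher and 5.83% lower). Those were Ccl12, with 35 and 2 counts, and Cxcl2, at 243 and 111 CPM, at 17.6% and 9.38% of their macrophage-like levels in the ENPP1CKO library where C1q was at 11.3%. In this class macrophage markers summed to 5890 and 1039 CPM, and 60.0% of the Ccl12 counts and 52.4% of the Cxcl2 counts of the ENPP1CKO library were in 1 cell, as were 61.3% of the Cxcl2 counts of the control library. Cluster 8 (40 and 199 cells) was led by S100a8, S100a9, Chil3 and Ly6c2. It passed for 7 of 7 monocyte markers and 9 of 10 macrophage markers, and was left unnamed because neither type led by enough. In it Ccl6 was at 4519 and 3546 CPM (0.35), Cxcl2 at 2039.8 and 5068 CPM (-1.31) and Ccl3 at 1077 and 475 CPM (1.18). There 8 of 12 ligands were past 2-fold, 2 higher and 6 lower (21.3% of all genes, 4.20% higher and 17.1% lower). Of the ENPP1CKO counts in this cluster, 28.9% of Ccl3, 32.9% of Ccl6 and 25.0% of Cxcl2 lay in 1 cell.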

How the data were processed

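The authors deposited raw counts per gene symbol for the CF and NRVM libraries, and raw counts per gene and cell barcode for the ENPP1CKO and control libraries. The submitters' processing notes name STAR 2.5.3a, Cell Ranger, mm10 and rn6, and the counter, annotation and strand setting are not given in the sources used here. Members and gene lists were chosen with earlier results of these data known. CF and NRVM counts were fitted separately over all groups of the experiment with edgeR 4.0.16 (TMM scaling, its filter on low counts, robust quasi-likelihood test), p-values were adjusted by Benjamini-Hochberg over all tested genes and the threshold was 0.05. Errors of log2 fold changes are standard errors.

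Single cells of 200 genes or more and no more than 20% mitochondrial counts were kept, predicted doublets (Scrublet, 2.02% in ENPP1CKO and 1.29% in control) were removed, and 2000 variable genes without the ligands gave Leiden clusters at resolution 0.5 in scanpy 1.11.5. A cluster was named where at least 3 markers of a type were found in 10% of its cells and were 2-fold above the median cluster. The share of its markers that passed also had to lead that of the next type by 0.15. Counts were summed per class and library, with CPM as a share of the class sum. Intervals are exact and cover counting error, and 0 counts were read as a limit of 3. Ligands with at least 20 counts per class entered the counts past 2-fold, and only some of them are described by name. Those with at least 50 get intervals, for up to 3 of the highest and 3 of the lowest ratios. In cultures ligands called in at least 1 comparison with vehicle are given by library for the comparisons described, the other tested ligands as ranges, and genes of other lists are limited to 4 per list by size. Replicates of a group differed by more than sampling noise and none were merged. The scripts were tested on simulated data. Number of sample columns not used was 0. Some genes of the fixed lists are not reported here. Alternatives were DESeq2 1.42.0, upper quartile scaling, no filter, only the libraries compared, the replicate number as a block, leaving out libraries (a lone library is then assumed to vary like the other groups), and for cells another filter, resolution 1.0, ligands kept in the clustering, doublets kept, thinning to 1000 counts and TMM scaling.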

Additional observations from a re-analysis of the deposited data

Results flagged for a closer look

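The effect of conditioned medium on CFs differed between 24 h and 48 h for 17 pairs of ligand and medium by the interaction test in edgeR. With ENPP1+ATP the log2 fold change over vehicle at 48 h minus that at 24 h was 0.96 for Ccl2, 0.50 for Ccl5, 1.28 for Ccl7, -0.38 for Cx3cl1, 0.79 for Cxcl1, 1.03 for Cxcl12 and 0.60 for Cxcl16. With AMP it was 0.59 for Ccl2, -2.24 for Ccl20, 1.097 for Ccl7, 0.84 for Ccl9, -0.43 for Cx3cl1, -1.16 for Cxcl10, 1.46 for Cxcl12 and 0.32 for Cxcl16. Cxcl9 had fitted values of -5.35 with ENPP1+ATP and -5.39 with AMP, which depend on groups with 0 reads and are no bound.

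The interaction of Ccl5 with ENPP1+ATP was called with all libraries (adjusted p = 0.0374) and lost whichever of the 8 libraries was left out (0.0562 to 0.152). That of Cxcl9 was lost without any of the 8 libraries with ENPP1+ATP and without 7 of them with AMP. With AMP, Ccl9 was lost without AMP replicate 2 at 24 h or AMP replicate 1 at 48 h (adjusted p up to 0.0995), and Cxcl16 without vehicle replicate 1 at 24 h or vehicle replicate 2 at 48 h (up to 0.0862).

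At 24 h the libraries of CFs and of NRVMs moved in opposite directions for 4 pairs of ligand and medium among ligands tested under the same symbol in both experiments. In such a pair all libraries of the medium lay above all vehicle libraries in 1 experiment and below them in the other. The share of all genes that did so was not counted, and nothing is read from the number of pairs. With ENPP1+ATP, Ccl2 was at -0.28 in CFs and 1.35 in NRVMs, Ccl7 at -1.12 and 0.61, and Cxcl10 at -0.43 and 1.30 on the log2 scale. With ATP, Cx3cl1 was at -0.42 in CFs and 1.31 in NRVMs. Some of these calls were lost elsewhere: Ccl2 in CFs with DESeq2, with upper quartile scaling and without ENPP1+ATP replicate 1 or 2 or vehicle replicate 1 (adjusted p up to 0.263), Cxcl10 in CFs without ENPP1+ATP replicate 1 or vehicle replicate 2 (up to 0.125), and Ccl7 in NRVMs without replicate 3 of each group (0.0853). Ccl27a of the CFs and Ccl27 of the NRVMs have different symbols and were not matched, and their values were -1.12 and 1.24 with ENPP1+ATP and -0.73 and 0.71 with AMP. Whether the effects differ between the 2 cell types was not tested, since the tables are of different species and were fitted separately.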

How the results depend on the processing

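Of 191 recomputed counts of called ligands, 169 stayed within 1.5 times the count reported and 22 did not, and of 2230 recomputed values of single ligands in the cultures 2070 kept direction and side of the threshold, 95 lost the call and 65 gained one. The count for CFs with ATP at 24 h, 3 as reported, was 5 with no filter and 5 with only the libraries compared. AMP over ENPP1+ATP at 24 h (4) gave 8 with no filter, ENPP1 at 48 h (0) gave 5 with no filter, AMP over ENPP1+ATP at 48 h (0) gave 1 with DESeq2 and 3 with no filter, and vehicle at 48 h over 24 h (1) gave 2 with DESeq2, 6 with no filter and 7 with only the libraries compared. NRVMs with AMP over ENPP1+ATP (3) gave 5 with no filter. The cause was not tested. When 1 library was left out, the counts ranged from 1 to 3 for ATP at 24 h, 1 to 2 for AMP over ENPP1+ATP at 24 h, 7 to 11 for ENPP1+ATP, 5 to 8 for AMP and 3 to 6 for ATP at 48 h. Ccl8 with ENPP1+ATP and Ccl2 with ATP at 48 h lost their calls with only the libraries compared, and Cxcl13 at 48 h with no filter.

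Deviations from the group mean of libraries with the same replicate number correlated at -0.19 to 0.38 (median 0.03) over 90 pairs in CFs. In NRVMs they correlated at -0.20 to 0.13 over 30 pairs, against -0.21 to 0.30 over 60 pairs with different numbers. CF groups have 2 libraries, so that pairs with different numbers only mirror the CF values. Whether replicate numbers pair the CF libraries is therefore not settled. With the replicate number as a block the counts in CFs were 13 for ENPP1+ATP, 11 for AMP and 4 for ATP at 24 h, 11, 9 and 7 at 48 h, and 2 for vehicle at 48 h over 24 h, and in NRVMs 7, 6 and 7.

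In single cells the summed ligand log2 ratio moved beyond its counting interval in 10 of 37 recomputed values and kept its sign in all of these. It was -0.24 in fibroblast-like cells when thinned, 0.29 in macrophage-like cells with ligands kept in the clustering, 0.39 with TMM scaling and 0.39 without cluster 6. It was -0.52 in endothelial-like cells with doublets kept and -0.77 when thinned, and -0.29 in dendritic-like cells when thinned and -0.65 with TMM scaling. It was -1.34 in smooth muscle or pericyte-like cells with doublets kept, and 0.72 in T or NK cell-like cells with TMM scaling. The sign of the endothelial-like sum rests on Ccl21a, with 3020 of 6082 ligand counts for ENPP1CKO and 2431 of 3014 for control. Of single ligands, 3 changed sign. Ccl5 in macrophage-like cells was at 0.10 (-0.16 as reported) and Cxcl12 there at -0.66 (1.25) with ligands kept in the clustering, and Cxcl10 in endothelial-like cells at -0.065 (0.87) with doublets kept. A neutrophil-like class was found only at resolution 1.0 (16 and 97 cells, summed ligand log2 ratio -0.13) and has no value at the resolution reported. With 1 library per genotype, depth is not the only limit of these ratios.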

Other observations

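Chemokine receptors were measured in the same single-cell classes. In macrophage-like cells Ccr1 was at 31.1 CPM for ENPP1CKO against 52.7 CPM for control (log2 ratio -0.76), Cxcr4 at 82.5 and 135 CPM (-0.71), Ccr2 at 98.8 and 105 CPM (-0.09) and Cx3cr1, the receptor of CX3CL1, at 139 and 139 CPM (0.00). In dendritic-like cells Ccr7, which guides these cells to lymph nodes and is also among the dendritic markers, was at 320.0 and 968 CPM (-1.60, -1.91 to -1.29). In T or NK cell-like cells Cxcr6, the receptor of CXCL16, was at 371 and 357 CPM (0.06). These values have no replicate check and their intervals cover counting error only.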
